A study of Mus musculus with 32 samples.

Results

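The comparison described here is the 10-week high-fat diet (HFD) in male mice that were 7 weeks old when the diet began. It rests on 8 of the 32 liver RNA-seq libraries of the study, 4 from mice on the HFD (M2.1, M2.2, M5.1 and M5.2) and 4 from mice on the matched low-fat diet (LFD; M3.1, M3.2, M4.1 and M4.2), chosen by their labels alone, and covers all genes tested. Both groups were C57BL/6J males of the same starting age, killed in the fed state, and they differed in diet: 60 kcal% fat in the HFD, with some sucrose and more cholesterol, and 10 kcal% fat in the LFD, whose energy came mostly from carbohydrate. The other 24 libraries came from aged males (52 weeks old at the start) and from young and aged females on the same diets, and serve below for comparison. The labels give whole liver as the tissue, and 10 hepatocyte markers together made up 98200 to 111000 CPM (counts scaled to the size of the library) in the HFD libraries and 106000 to 126000 CPM in the LFD libraries. In whole-tissue RNA, fewer cells of a type and less RNA per cell cannot be told apart.

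A library held 40461281 to 54317005 counts. In a multidimensional scaling of the 8 libraries, the first dimension held 43.5% of the variance and placed M5.1 at 1.94, M2.1 at 1.48, M2.2 at -0.26, M5.2 at -0.30 and the 4 LFD mice between -0.58 and -0.81. M2.1 and M5.1 therefore stood apart from the other 2 HFD mice, and the main counts are given with and without them. Levels are given as CPM scaled by TMM, in the order M2.1, M2.2, M5.1, M5.2 for the HFD and M3.1, M3.2, M4.1, M4.2 for the LFD, and are compared between mice and not between genes. Changes are log2 fold changes of the HFD against the LFD with their standard error (SE) from edgeR's quasi-likelihood fit over the 16 male libraries, and a gene is called where the p-value adjusted over all genes is under 0.05. Only called genes are said to have risen or fallen.

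Fat that reaches the liver is taken up, activated to acyl-CoA, and then either esterified and stored in lipid droplets, exported in lipoproteins, or oxidized in mitochondria and peroxisomes, with ketone bodies as an end product. PPAR-alpha, a nuclear receptor that fatty acids activate, controls many of the oxidation genes, while SREBP1 and ChREBP drive the synthesis of new fatty acids when carbohydrate and insulin are high. PPAR-gamma, scarce in lean liver, is known to drive droplet genes such as Cidec and Mogat1 in fatty liver.

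On the HFD, 926 of 16077 genes (5.76%) were called, 565 of them higher (3.51%) and 361 lower (2.25%). The count of calls in each gene list below is to be read beside these shares. Most changes were modest: 206 of the higher and 84 of the lower genes moved 2-fold or more, and the median size of a called change was 0.63 on the log2 scale. Of the called genes, 834 were protein-coding, among 13473 protein-coding genes tested. The 4 HFD libraries lay above or below all 4 LFD libraries in 11.6% of all genes (6.06% above and 5.49% below), against 466 of the 565 higher and 326 of the 361 lower genes.

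The size of the response differed between the 4 HFD mice. Among the 565 higher genes, M2.1 and M5.1 both exceeded M2.2 and M5.2 in 400 (70.8%), and the reverse held in 26. Among the 361 lower genes, M2.1 and M5.1 were both the lower ones in 174 (48.2%) and the reverse held in 24. Against the mean of the LFD mice, the median of the higher genes was 0.84 in M2.1, 0.83 in M5.1, 0.50 in M2.2 and 0.40 in M5.2. When M2.1 and M5.1 were left out, 78 genes were called, 72 of them among the 926, but 563 of the 565 higher and all 361 lower genes kept their sign, with medians of 0.46 and -0.48 in place of 0.68 and -0.59. The count of calls was 325 without M2.1, 380 without M5.1, 1098 without M2.2 and 1110 without M5.2. It was 572 without M3.1, 679 without M3.2, 478 without M4.1 and 327 without M4.2, so it also depended on the LFD mice.

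**Figure D1:**
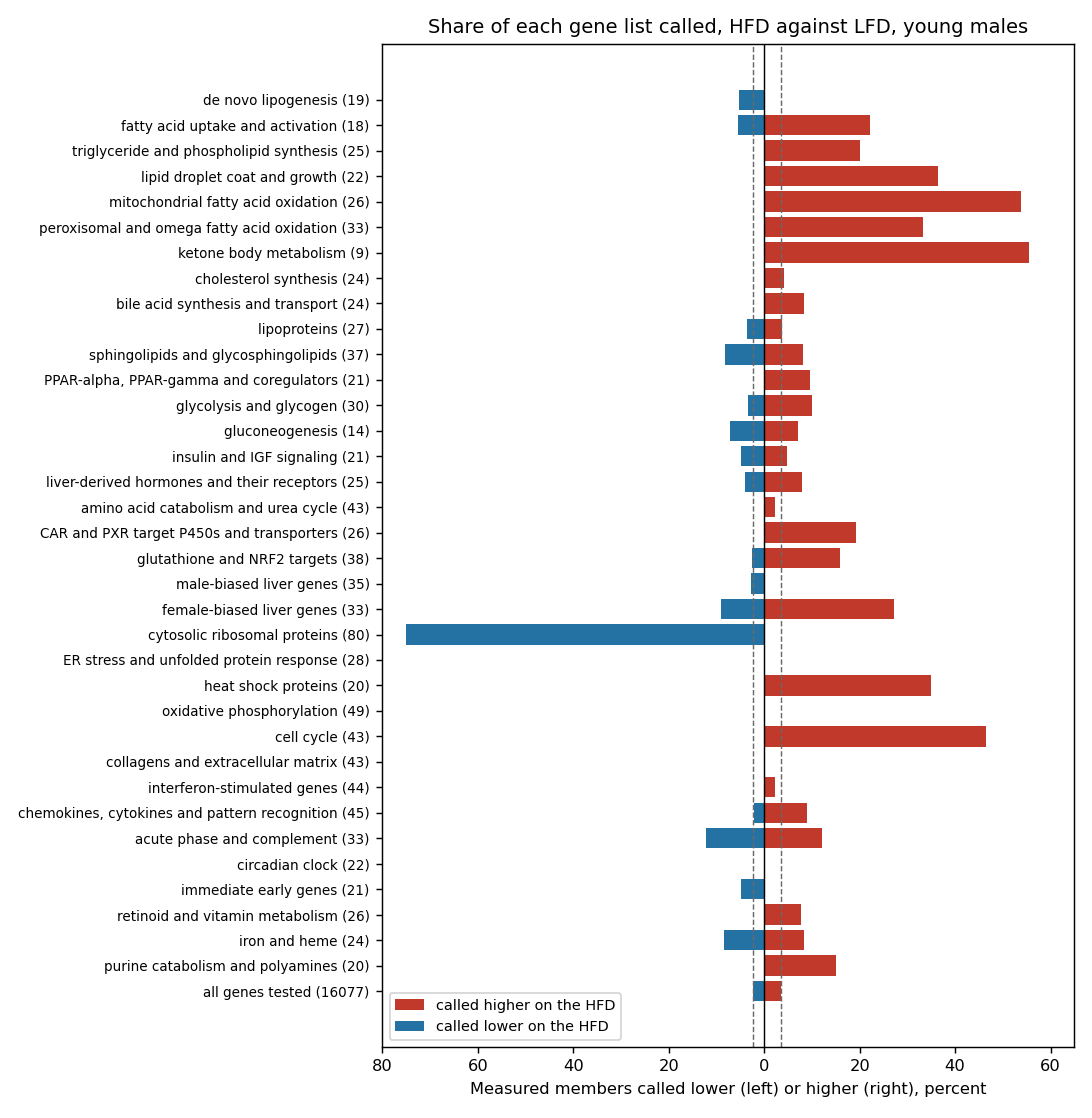
Share of the measured members of each of the 35 gene lists that were called higher (right) or lower (left) on the HFD in young males, in percent, with the number of measured members in brackets and, as dashed lines, the shares over all genes tested (3.51% higher and 2.25% lower). Ribosomal protein genes extend furthest to the left (60 of 80), and mitochondrial oxidation, ketone body and cell cycle genes furthest to the right.

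Of the 926 called genes, 58 were called under each of the 18 other planned settings, 43 of them higher and 15 lower. Some of these were at like levels in the 4 HFD mice. Dio1, the deiodinase that converts thyroxine to active thyroid hormone (chromosome 4, 107291465 to 107307169 on mm10), measured 193, 182, 183 and 182 CPM on the HFD and 80, 76.5, 66.5 and 71 CPM on the LFD (log2 fold change 1.33, SE 0.15, adjusted p = 0.000512). The HFD mice lay in a narrow band far above each LFD mouse. Antxr2, an anthrax toxin receptor that binds matrix proteins, measured 43.2, 42.4, 47.1 and 44 CPM on the HFD and 27.5, 26.7, 27.7 and 24.5 CPM on the LFD (log2 fold change 0.73). M2.2 and M5.2 were again as high as the other HFD mice. Tmem28 (log2 fold change 2.09), the molybdenum enzyme Suox (0.60), Chpt1 (0.89), which makes phosphatidylcholine, and Slc10a2 (1.04), a bile acid uptake carrier, were higher in all 4 mice. On the other side, the Polycomb protein Cbx7 measured 6.5, 7.27, 5.11 and 6.64 CPM on the HFD and 11.6, 11.5, 13.5 and 14.1 CPM on the LFD (log2 fold change -0.99), and the myelin enzyme gene Cnp (-0.98) and the guanine nucleotide exchange factor gene Farp1 (-0.67) were lower in all 4 mice. These genes were picked after their values were seen, for holding under all 18 settings.

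Others of the 58 differed in size between the HFD mice. Vnn1, a pantetheinase and a known PPAR-alpha target, measured 194, 83, 176 and 60.8 CPM on the HFD and 29.5, 32, 29.4 and 26.6 CPM on the LFD (log2 fold change 2.13, SE 0.28, adjusted p = 0.001). Gpc1, a cell-surface proteoglycan, measured 66.3, 33.6, 57.7 and 21.3 CPM on the HFD and 7.82, 10, 9.2 and 8.9 CPM on the LFD (log2 fold change 2.32). M2.1 and M5.1 were the highest, but M2.2 and M5.2 also lay above all LFD mice. Vnn1 and Gpc1 were chosen after their values were seen. Among the 24 genes with the largest changes by the naming rule, 12 higher and 12 lower, Wfdc2, a secreted protease-inhibitor-like protein, measured 9.16, 2.98, 12.7 and 1.28 CPM on the HFD and 0.845, 1.1, 1.18 and 0.622 CPM on the LFD, and Slc22a27, an organic anion transporter, 18.1, 1.29, 21 and 1.15 CPM on the HFD and 0.578, 0.27, 0.621 and 0.407 CPM on the LFD. In both genes M2.1 and M5.1 were far above M2.2 and M5.2. The naming rule took only called genes whose diets did not overlap, so M2.2 and M5.2 exceeded each LFD mouse by that choice.

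**Figure D2:**
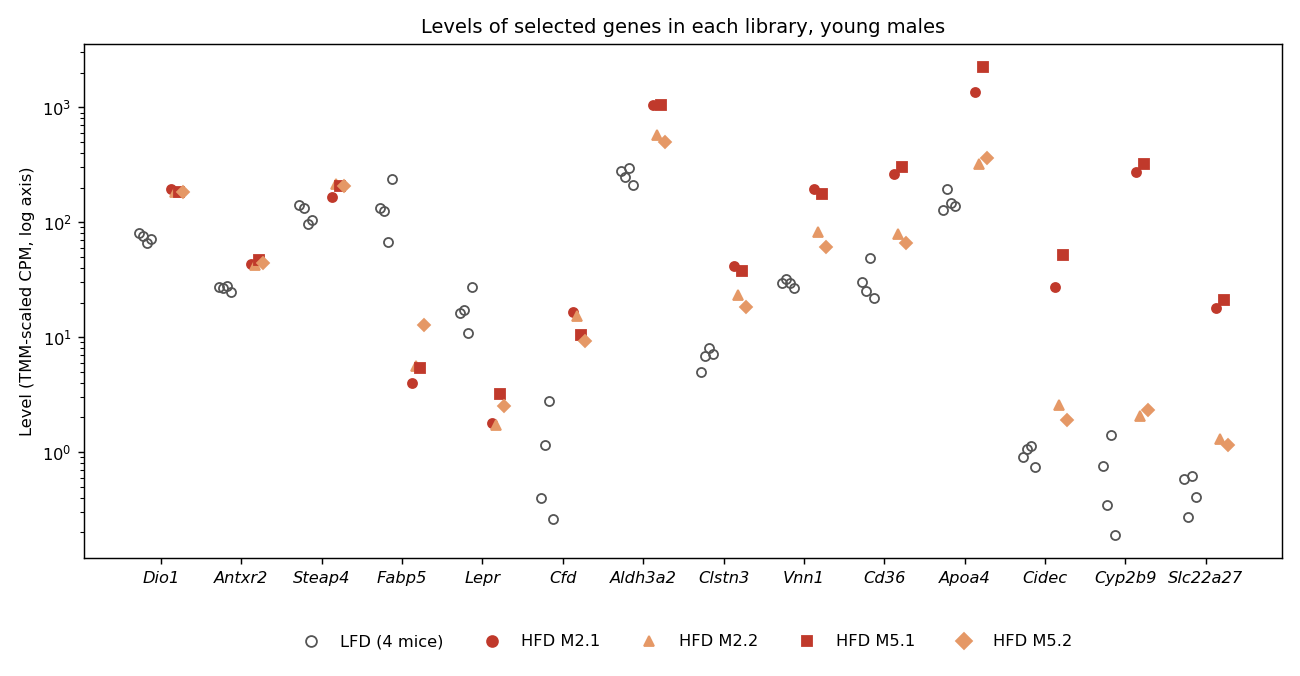
Level of 14 genes in each of the 8 young male libraries, as TMM-scaled CPM on a log axis, with open circles for the 4 LFD mice and filled symbols for the 4 HFD mice (dark for M2.1 and M5.1, light for M2.2 and M5.2). Dio1, Antxr2 and Steap4 were raised alike in the 4 HFD mice, while Cidec, Cyp2b9 and Slc22a27 were far higher in M2.1 and M5.1.

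Under the same rule, each of the 12 leading lower genes was lower in all 4 HFD mice than in each LFD mouse by choice. Fabp5, a fatty acid binding protein (chromosome 3, 10012548 to 10016607), measured 4.01, 5.65, 5.39 and 12.7 CPM on the HFD and 132, 124, 66.7 and 236 CPM on the LFD (log2 fold change -4.34, SE 0.45, adjusted p = 0.000478). The highest HFD mouse, M5.2, was far under the lowest LFD mouse, M4.1. Srgap3, a regulator of small GTPases, measured 1.7, 2.98, 1.37 and 1.61 CPM on the HFD and 8.6, 6.01, 14.2 and 13.5 CPM on the LFD (log2 fold change -2.47). Pdzk1ip1 fell by a log2 fold change of -1.92, the phosphatase gene Acpp by -1.68 and the acetyltransferase gene Nat8f7 by -3.13. Slc13a2, a citrate and succinate carrier, was lowest in M2.1 and M5.1 (0.253, 1.29, 0.288 and 1.07 CPM on the HFD and 1.6, 2.95, 2.88 and 1.51 CPM on the LFD, log2 fold change -1.64, adjusted p = 0.0412). Prss8, a membrane serine protease gene, fell with a log2 fold change of -1.67. Of the 24 leading genes, 19 stayed called without M2.1, 21 without M5.1, 19 without M4.2 and 20 without M4.1, 22 or 23 without any other single mouse, and 9 without both M2.1 and M5.1.

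Of 65 measured genes of fatty acid uptake, glyceride synthesis and lipid droplets, 17 were higher (beside 3.51% of all genes) and 1 was lower, and the median log2 fold change was 0.20 beside 0.01 over all genes. Some of the droplet and glyceride synthesis genes are named by the study from these same libraries, so their counts are not independent evidence of direction. Cd36, the fatty acid translocase (chromosome 5, 17781690 to 17888801), measured 265, 78.8, 301 and 65.6 CPM on the HFD and 29.9, 25.2, 48.9 and 21.9 CPM on the LFD (log2 fold change 2.50, SE 0.46, adjusted p = 0.00771). All HFD mice lay above all LFD mice, with M2.1 and M5.1 well above the other 2. Fabp2, an intracellular fatty acid carrier best known from intestine, measured 169, 130.2, 141 and 101 CPM on the HFD and 66.6, 68.3, 67.9 and 59.6 CPM on the LFD (log2 fold change 1.05, adjusted p = 0.00129). Its rise was more even across the mice. The transporter gene Slc27a4 (log2 fold change 0.48) and the acyl-CoA synthetase gene Acsf2 (0.52) also rose. Acsl1, the main long-chain acyl-CoA synthetase of liver, measured 1929, 1863, 1482 and 1520.1 CPM on the HFD and 1341, 1351, 1392 and 1236 CPM on the LFD, which did not pass the test (log2 fold change 0.35, adjusted p = 0.233). Fabp5 was the 1 gene that fell.

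Of 25 measured genes of triglyceride and phospholipid synthesis, 5 rose and 0 fell, beside 3.51% higher and 2.25% lower over all genes. The study names Gpat, Pctp, Lpgat1 and Agpat3 from these same libraries, so the count is not independent evidence of direction. Gpat3, which starts glyceride synthesis, measured 14.8, 5.04, 15.4 and 2.45 CPM on the HFD and 1.13, 1.5, 1.95 and 0.909 CPM on the LFD (log2 fold change 2.78, SE 0.48, adjusted p = 0.00557). M2.1 and M5.1 were the highest and M5.2 the lowest of the HFD mice, still above each LFD mouse. Mogat1, the monoacylglycerol acyltransferase, had a log2 fold change of 3.53, the acyltransferase genes Lpgat1 and Agpat3 of 0.53 and 0.41, and the phosphatidylcholine transfer protein gene Pctp of 0.70. Dgat2, which makes the last step to triglyceride, was level (427, 462, 446 and 499 CPM on the HFD and 509, 457, 499 and 491 CPM on the LFD, log2 fold change -0.09, adjusted p = 0.714). The values of Lpin1 spread widely within both diets (126, 408, 377 and 489.8 CPM on the HFD and 276, 204, 168 and 355 CPM on the LFD) and did not pass the test. Chpt1, named above as higher, is not in this list and not in its count.

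Of 22 lipid droplet genes, 8 rose and 0 fell, beside 3.51% higher and 2.25% lower over all genes. Plin2, the common coat protein of hepatocyte droplets (chromosome 4, 86648386 to 86670060), measured 884, 650.1, 760.4 and 399 CPM on the HFD and 347, 444, 337 and 313 CPM on the LFD (log2 fold change 0.90, SE 0.18, adjusted p = 0.00934). M5.2, the lowest HFD mouse, was within the range of the LFD mice. Plin4, the coat protein of adipocyte droplets, measured 49.2, 11.6, 52.8 and 10.6 CPM on the HFD and 3.05, 4.57, 5.96 and 6.34 CPM on the LFD (log2 fold change 2.64, adjusted p = 0.00602), with all HFD mice above all LFD mice. Cidec, which fuses droplets into larger ones, measured 27.1, 2.56, 51.3 and 1.89 CPM on the HFD and 0.911, 1.06, 1.13 and 0.742 CPM on the LFD (log2 fold change 4.43, SE 0.83). All HFD mice were above all LFD mice, M2.1 and M5.1 by far the most. Its relative Cidea measured 1.19, 0.586, 4.29 and 0.255 CPM on the HFD and 0.0667, 0.0245, 0.222 and 0 CPM on the LFD (log2 fold change 4.24, adjusted p = 0.0201). By contrast Clstn3 (chromosome 6, 124430581 to 124464794), whose locus is known to yield a droplet protein in fat tissue, measured 41.4, 23.2, 37.3 and 18.2 CPM on the HFD and 4.93, 6.85, 8.05 and 7.15 CPM on the LFD (log2 fold change 2.16, SE 0.23, adjusted p = 0.000478), and Fitm1, which buds droplets from the endoplasmic reticulum, 26.7, 18.8, 24.4 and 14.3 CPM on the HFD and 7.56, 7.66, 8.14 and 6 CPM on the LFD (log2 fold change 1.52). Both rose in all 4 mice. Fitm2 (log2 fold change 0.77) and the lipase gene Mgll made up the 8. Plin5 (0.58, adjusted p = 0.0625), G0s2 (1.18, adjusted p = 0.0821) and Hsd17b13 (0.33, adjusted p = 0.205) did not pass the test. Of the 18 storage calls, 15 held without M2.1, without M5.1 or without M4.2, 16 to 18 without any other mouse, and 5 without M2.1 and M5.1 together.

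Fatty acid oxidation and ketone body genes were called higher in larger shares than the storage genes. Of 26 mitochondrial oxidation genes, 14 rose and 0 fell, beside 3.51% higher and 2.25% lower over all genes. Their median log2 fold change was 0.42, and 25 of the 26 lay above 0. Of 33 peroxisomal and omega-oxidation genes, 11 rose and 0 fell (median 0.40), and of 9 ketone body genes 5 rose and 0 fell (median 0.43). Several of these genes, such as Acadm, Acot2 and Acss3, are named by the study from these same libraries, so the counts are not independent evidence of direction. The 3 list medians were highest in M2.1 (0.61, 0.61 and 0.67) and lowest in M5.2 (0.13, 0.11 and 0.23).

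The carnitine shuttle brings long-chain fatty acids into mitochondria. Its entry enzyme Cpt1a measured 889, 653, 809 and 658 CPM on the HFD and 518, 602, 454 and 499.7 CPM on the LFD, just short of the threshold (log2 fold change 0.54, adjusted p = 0.0521). The carrier Slc25a20 measured 147, 120.4, 127 and 98.7 CPM on the HFD and 77, 76.1, 84.2 and 73.9 CPM on the LFD (log2 fold change 0.66, SE 0.10, adjusted p = 0.00285) and Cpt2 had a log2 fold change of 0.54. In all 3 genes each HFD mouse was above each LFD mouse. Crat, the carnitine acetyltransferase, rose most of the named shuttle enzymes (133, 66, 117 and 51.1 CPM on the HFD and 34.1, 34.6, 41.3 and 28.7 CPM on the LFD, log2 fold change 1.41). Within the beta-oxidation spiral, Acadm, the medium-chain dehydrogenase, measured 543, 416, 487 and 349 CPM on the HFD and 299, 272, 309 and 254 CPM on the LFD (log2 fold change 0.66, adjusted p = 0.00767), and Decr1 (0.54), Eci1 (0.55) and Hadha (0.32), of which the first 2 serve unsaturated fatty acids, rose too. The very long-chain dehydrogenase gene Acadvl (0.19, adjusted p = 0.154) and the thiolase gene Acaa2 (0.14, adjusted p = 0.435) did not pass the test. The thioesterase gene Acot2 (log2 fold change 1.63) and the uncoupling protein gene Ucp2 (1.14) rose through M2.1 and M5.1. Acot2 measured 17.4, 5.23, 17 and 3.19 CPM on the HFD and 3.25, 3.26, 3.75 and 3.56 CPM on the LFD, so that M5.2 was no higher than the LFD mice. Pdk4, which holds back glucose oxidation, had 17.4, 5.65, 20.7 and 6.77 CPM on the HFD and 7.07, 7.41, 11.4 and 5.67 CPM on the LFD and was not called.

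In peroxisomes, Hsd17b4, the bifunctional protein, measured 782, 607, 754 and 538 CPM on the HFD and 427, 394, 405 and 388 CPM on the LFD (log2 fold change 0.73, SE 0.10, adjusted p = 0.00174), and the thiolase Acaa1b 1561, 852, 1551 and 644 CPM on the HFD and 534, 525, 623 and 534 CPM on the LFD (log2 fold change 1.06). All 4 HFD mice were above all LFD mice in both. Pex11a, which divides peroxisomes, had a log2 fold change of 1.13 and Ech1 of 0.58. Aldh3a2, the fatty aldehyde dehydrogenase (chromosome 11, 61223417 to 61267464), measured 1038, 572, 1054 and 499 CPM on the HFD and 277, 246, 296 and 212 CPM on the LFD (log2 fold change 1.62, SE 0.21, adjusted p = 0.000882). M2.2 and M5.2 were clearly above each LFD mouse, and M2.1 and M5.1 higher again. The omega-hydroxylase Cyp4a10 measured 569.9, 289, 426 and 149 CPM on the HFD and 93.4, 99.8, 219 and 75.4 CPM on the LFD (log2 fold change 1.55, adjusted p = 0.0398), and Cyp4a14 913, 178, 630.5 and 50.9 CPM on the HFD and 61.2, 29.6, 263 and 77.1 CPM on the LFD, which did not pass (adjusted p = 0.125). The LFD mouse M4.1 was high for both. Ehhadh (0.19, adjusted p = 0.554), another known PPAR-alpha target, and Abcd2 (0.79, adjusted p = 0.257), the peroxisomal transporter, were not called.

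Among ketone body genes, Bdh1, which interconverts the main ketone bodies, measured 362, 239.9, 319 and 223 CPM on the HFD and 189.5, 192, 182 and 184 CPM on the LFD (log2 fold change 0.61, SE 0.13, adjusted p = 0.0139), and the thiolase gene Acat1 607, 507, 529.6 and 457 CPM on the HFD and 393, 383, 415 and 341 CPM on the LFD (log2 fold change 0.46). In both each HFD mouse exceeded each LFD mouse. Acss3, a mitochondrial short-chain acyl-CoA synthetase, had the largest change of the list (90.8, 43.1, 82.1 and 32.2 CPM on the HFD and 19, 20.1, 25.3 and 20.3 CPM on the LFD, log2 fold change 1.55). Of the regulators, Ppara measured 260.4, 135, 247 and 263 CPM on the HFD and 137, 195, 205 and 165 CPM on the LFD, which overlapped between diets (log2 fold change 0.37, adjusted p = 0.371). Ppargc1a had a log2 fold change of -0.28 (adjusted p = 0.623). Pparg measured 20.3, 10.5, 24.3 and 7.92 CPM on the HFD and 8.27, 3.9, 6.39 and 5.67 CPM on the LFD (log2 fold change 1.38, adjusted p = 0.0178), with M5.2 at 7.92 CPM beneath the LFD mouse M3.1. Foxo1 (log2 fold change 0.38, adjusted p = 0.0484) was the other of 2 called genes among 21, beside 5.76% of all genes. Of the 32 oxidation, ketone and regulator calls, 15 held without M2.1, 18 without M5.1, 15 without M4.2, 22 without M3.1, 21 without M3.2, 22 without M4.1, 28 without M2.2 and 31 without M5.2, and 4 without M2.1 and M5.1 together. Those 4 were 3 peroxisomal and omega-oxidation genes and 1 regulator, with 0 of the 14 mitochondrial and 0 of the 5 ketone body calls.

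**Figure D3:**
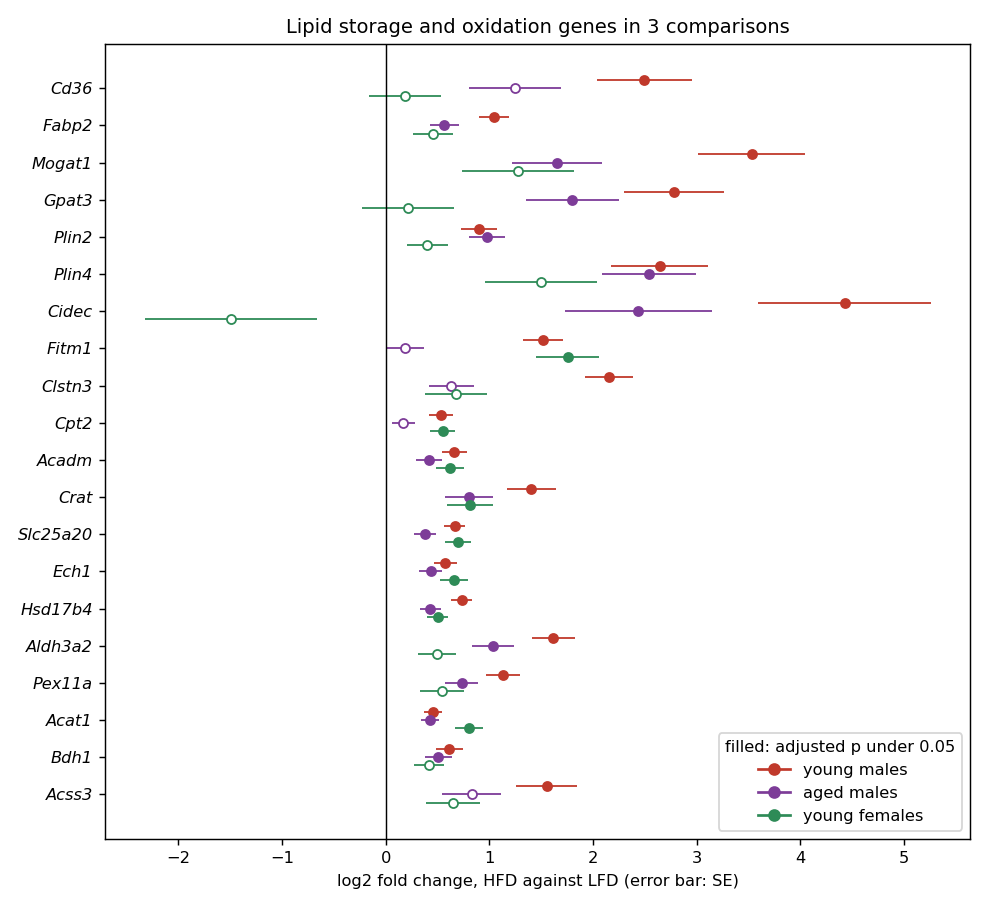
Log2 fold change on the HFD (point) with its SE (bar) of 20 storage, oxidation and ketone body genes in young males, aged males and young females, filled where called. All 20 were chosen among genes called higher in young males, so their young male values lie to the right of 0 by that choice. List members that were not called are not shown. The widest young male bars are those of Cidec, Mogat1 and Gpat3.

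PPAR-alpha binds, with RXR, to a direct repeat of the half-site AGGTCA with 1 base between the copies (AGGTCANAGGTCA). RefSeq promoter windows on GRCm38.p6, 250 bases before to 50 bases after each start, were searched on both strands for it with up to 2 mismatches among its 12 fixed letters. Of the 38 called genes of the mitochondrial, peroxisomal, ketone and droplet lists, 27 had a window and 2 of these held a match (7.41%), as did 5 of 40 genes of the lists that were not called (12.5%), 435 of 11358 genes tested (3.83%) and 1268 of all 32851 windows (3.86%). The matches of the 2 called genes are shown because they are the only ones among them, with the matched bases in capitals and 8 bases on each side:
Plin2: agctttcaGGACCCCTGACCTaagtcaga
Slc25a20: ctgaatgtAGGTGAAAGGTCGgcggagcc
The Plin2 stretch (chr4:86670264-86670292, minus strand) begins its match 225 bases before the start and holds the repeat on the opposite strand. The Slc25a20 stretch (chr9:108662134-108662162, plus strand) has its match at base 7 of the transcript. Sites outside these windows, including enhancers, were not searched, and a match of letters is not a bound site.

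De novo lipogenesis had 1 called gene of 19, a lower one, beside 2.25% lower over all genes, and the list median was -0.55. DESeq2 and the likelihood ratio test each called 6 of the 19 lower and 1 higher. Over all 16077 genes they called 606 and 458 lower and 816 and 702 higher. Mlxipl, which encodes the carbohydrate-responsive factor ChREBP, measured 240.1, 311, 202 and 258 CPM on the HFD and 349, 369, 402 and 403 CPM on the LFD (log2 fold change -0.59, SE 0.13, adjusted p = 0.0177), with each HFD mouse below each LFD mouse. The enzymes Acly (log2 fold change -0.60, adjusted p = 0.313), Acaca (-0.64, adjusted p = 0.167) and Fasn (-0.55, adjusted p = 0.523) had negative values that did not pass the test. Fasn measured 1066, 785, 2847 and 1125 CPM on the HFD and 1861, 1362, 1622 and 3672 CPM on the LFD, with M5.1 above 3 of the 4 LFD mice. Scd1, the desaturase, measured 15703, 6501, 17175 and 8497 CPM on the HFD and 22606, 18778, 16099 and 27482 CPM on the LFD (log2 fold change -0.83, adjusted p = 0.105). On the HFD, M2.1 and M5.1 were near the LFD mice and M2.2 and M5.2 were the 2 lowest. Elovl6 (-0.65) and Srebf1 (-0.39) were not called. Pnpla3, a lipase-like target of SREBP1, missed the threshold with a large value (1.19, 0.188, 3.43 and 0.715 CPM on the HFD and 7.14, 5.25, 5.96 and 18.8 CPM on the LFD, log2 fold change -2.75, adjusted p = 0.0521), while the desaturase gene Fads2 lay on the other side of 0 (0.62, adjusted p = 0.0754).

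Of 24 cholesterol synthesis genes 1 was called, beside 5.76% of all genes, and the list median was 0.07. Hmgcs1 measured 777, 698, 954 and 734 CPM on the HFD and 471, 443, 474 and 559 CPM on the LFD, without overlap between diets, but did not pass the test (log2 fold change 0.70, adjusted p = 0.32). The SREBP2 gene Srebf2 (0.32) and Sqle (0.28) were not called. Of 24 bile acid genes 2 rose and 0 fell, beside 3.51% higher and 2.25% lower over all genes. They were the phospholipid exporter gene Abcb4 (539, 437, 530.1 and 394 CPM on the HFD and 282, 314, 281 and 275 CPM on the LFD, log2 fold change 0.72) and the basolateral export pump gene Abcc3. Cyp7a1, the rate-limiting enzyme of bile acid synthesis, spread from 91.9 to 242 CPM on the HFD and from 51.4 to 208 CPM on the LFD and was not called (adjusted p = 0.684). Cyp8b1 (0.57, adjusted p = 0.179) and the bile salt export pump gene Abcb11 (-0.30, adjusted p = 0.327) were not called either. The bile acid carrier gene Slc10a2, named above as higher, is not in this list and not in its count.

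Of 27 lipoprotein genes, 1 rose (Apoa4) and 1 fell (Apom), beside 3.51% higher and 2.25% lower over all genes. Apoa4, an apolipoprotein of triglyceride-rich particles (chromosome 9, 46240696 to 46243459), measured 1358, 322, 2226 and 362 CPM on the HFD and 129, 194, 146 and 137 CPM on the LFD (log2 fold change 2.82, SE 0.53, adjusted p = 0.00829). M5.1 and M2.1 were the 2 highest mice, and M2.2 and M5.2 in turn exceeded each LFD mouse. Apom, the carrier of sphingosine-1-phosphate in HDL, measured 92.3, 139, 81.6 and 154 CPM on the HFD and 190.4, 185, 203 and 220.2 CPM on the LFD (log2 fold change -0.78, adjusted p = 0.0179), with no overlap. Apoa1 (-0.32), Apoc3 (0.12), Mttp (0.06), which loads lipid onto apoB, and Angptl4 (0.25) were not called. Of the 6 synthesis, bile acid and lipoprotein calls, 2 held without M2.1, M5.1 or M4.2, 4 without M4.1, 5 without M3.1 or M3.2, 6 without M2.2 or M5.2, and 0 without M2.1 and M5.1 together.

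Of 37 sphingolipid genes, 3 rose and 3 fell, beside 3.51% higher and 2.25% lower over all genes, and the list median was 0.04. The 6 called genes are named by the study from these libraries, so they are not independent evidence. Genes of glycosphingolipid breakdown moved both ways. Psap, the precursor of saposins (log2 fold change 0.48), and the sialidase gene Neu2 (0.98) rose. Galc, which breaks down galactosylceramide, measured 7.34, 6.05, 7.07 and 8.78 CPM on the HFD and 10.3, 12, 11 and 10.7 CPM on the LFD (log2 fold change -0.59, SE 0.11, adjusted p = 0.00829) and the GM2 activator Gm2a 116, 108, 111 and 113 CPM on the HFD and 173, 146, 147 and 171 CPM on the LFD (log2 fold change -0.51), both lower in each HFD mouse than in each LFD mouse. Ugcg, the glucosylceramide synthase, fell by less clear a margin (23.4, 20.7, 21.6 and 25.5 CPM on the HFD and 39.8, 23, 36.9 and 38.9 CPM on the LFD, adjusted p = 0.0457), since the LFD mouse M3.2 lay within the HFD range. The ceramide synthase genes Cers2 (0.01, adjusted p = 0.96) and Cers6 (0.70, adjusted p = 0.283) and the serine palmitoyltransferase gene Sptlc2 (0.03) were not called, and Sptssa was at the threshold (-0.35, adjusted p = 0.0503). Only 2 of the 6 calls held without M2.1, without M5.1, without M4.1 or without M4.2, 3 without M3.1, 4 without M3.2, 5 without M2.2, 6 without M5.2 and 0 without M2.1 and M5.1 together.

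Of 30 genes of glycolysis and glycogen, 3 rose and 1 fell, beside 3.51% higher and 2.25% lower over all genes. Ldha, the lactate dehydrogenase subunit (887, 822, 759.7 and 728 CPM on the HFD and 562, 582, 487 and 465 CPM on the LFD, log2 fold change 0.61), and Pgam1 (0.26) were among those that rose, and the glucose transporter gene Slc2a4 fell at low levels. Pklr, the liver pyruvate kinase and a ChREBP target, was not called (log2 fold change -0.43, adjusted p = 0.214), nor was Slc2a2 (-0.19). Of 14 gluconeogenesis genes Pcx, pyruvate carboxylase, rose (891, 671, 955 and 614 CPM on the HFD and 498, 541, 561 and 521 CPM on the LFD, log2 fold change 0.56), and G6pdx fell (4.63, 2.2, 4.89 and 5.26 CPM on the HFD and 12.8, 10.2, 8.14 and 27.2 CPM on the LFD, log2 fold change -1.78). G6pdx encodes the NADPH-producing first enzyme of the pentose phosphate pathway, and does not itself serve gluconeogenesis. Pck1 (-0.02, adjusted p = 0.975) and G6pc (-0.51, adjusted p = 0.412), the 2 classical gluconeogenic enzymes, overlapped between diets.

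In insulin signaling Irs2, the insulin receptor substrate that falls when insulin is high, measured 12, 17.3, 16 and 26.5 CPM on the HFD and 35.9, 25, 64.4 and 42.4 CPM on the LFD (log2 fold change -1.23, SE 0.28, adjusted p = 0.0201), the highest HFD mouse being just above the lowest LFD mouse. Igfbp1 (-1.13, adjusted p = 0.0714) and Igfbp2 (-1.16, adjusted p = 0.0937) had negative values that did not pass the test, and Irs1 was level (-0.11). Among liver-derived hormones, Tsku, a secreted protein that regulates cholesterol and energy use, measured 79.5, 113, 138 and 104 CPM on the HFD and 28.1, 35.8, 13.9 and 25.2 CPM on the LFD (log2 fold change 2.08, SE 0.46, adjusted p = 0.0166), with the lowest HFD mouse far above the highest LFD mouse. The hepatokine Lect2 measured 158, 137, 134 and 112 CPM on the HFD and 99.3, 94, 82.5 and 78.9 CPM on the LFD (log2 fold change 0.61). Lepr, the leptin receptor gene (chromosome 4, 101717404 to 101815352), measured 1.79, 1.74, 3.19 and 2.5 CPM on the HFD and 16.3, 17.2, 10.9 and 27.2 CPM on the LFD (log2 fold change -2.96, SE 0.43), with the groups far apart. Fgf21 (log2 fold change 1.02, adjusted p = 0.249) and Gdf15 (1.22, adjusted p = 0.0827) were not called. Of 43 amino acid and urea cycle genes 1 was called, beside 5.76% of all genes. It was Ppm1k, the phosphatase that activates branched-chain keto acid breakdown (133, 125, 105 and 115 CPM on the HFD and 74.8, 74.7, 79.3 and 49.7 CPM on the LFD, log2 fold change 0.78). Cps1 (-0.58, adjusted p = 0.152) and Ass1 (-0.38, adjusted p = 0.272) of the urea cycle were lowest in M2.1 and M5.1 and not called. Of the 12 calls over these lists, 8 held without M2.1, M4.1 or M5.1, 6 without M4.2, 9 without M2.2 or M3.1, 11 without M3.2, 10 without M5.2 and 4 without M2.1 and M5.1 together.

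Of 26 genes known as targets of CAR and PXR, the xenobiotic receptors of liver, 5 rose, beside 3.51% of all genes. Cyp2b10 measured 16.2, 15.2, 11.2 and 10.2 CPM on the HFD and 3.42, 4.32, 6.52 and 4.11 CPM on the LFD (log2 fold change 1.52, SE 0.28, adjusted p = 0.00798), raised in all 4 HFD mice, while its relative Cyp2b9 was raised far more in M2.1 and M5.1 than in the other 2. The estrogen sulfotransferase gene Sult1e1 measured 0.434, 0.446, 0.599 and 1.07 CPM on the HFD and 0.0889, 0.147, 0.0887 and 0.215 CPM on the LFD (log2 fold change 2.22), highest in M5.2. The classical PXR target Cyp3a11 (-0.38, adjusted p = 0.428), Cyp2c29 (-0.55) and the receptor genes Nr1i2 (0.22) and Nr1i3 (0.56, adjusted p = 0.105) were not called. Reads shared by near-identical Cyp2b, Cyp2c, Cyp3a and Cyp4a genes were left out by the authors, so counts of these genes may miss reads. Among 38 glutathione and NRF2 genes, 6 rose and 1, G6pdx, fell, beside 3.51% higher and 2.25% lower over all genes. The list median was 0.37. Gstk1, a mitochondrial and peroxisomal glutathione transferase, measured 125, 118, 110.2 and 94.2 CPM on the HFD and 73.6, 74.6, 63.5 and 60.6 CPM on the LFD (log2 fold change 0.72, adjusted p = 0.00493), with all HFD mice higher, and Aox1, an aldehyde oxidase, 183, 124, 198 and 102 CPM on the HFD and 87.5, 66.3, 87.2 and 57.1 CPM on the LFD (1.03). Ugdh rose as well (0.63), and Gsta1 rose through M2.1 and M5.1 (4.97, 0.328, 9.23 and 0.0766 CPM on the HFD and 0.267, 0.344, 0.155 and 0.0239 CPM on the LFD). The NRF2 marker Nqo1 showed the same high pair (12.5, 3.75, 13.8 and 2.68 CPM on the HFD and 4.6, 2.53, 3.24 and 3.13 CPM on the LFD) and did not pass (adjusted p = 0.075), while catalase, Cat, was level (0.14, adjusted p = 0.495). Of the 12 calls, 6 held without M2.1, M3.1 or M5.1, 5 without M4.2, 7 without M3.2, 8 without M4.1, 12 without M2.2 or M5.2, and 0 without M2.1 and M5.1.

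Many liver genes differ in level between the sexes, under the pulse pattern of growth hormone. On the HFD, the male-biased genes were low and the female-biased genes high in M2.1 and M5.1. Over 35 male-biased genes the median log2 ratio to the LFD mean was -1.39 in M2.1 and -1.75 in M5.1, but 0.19 in M2.2 and 0.17 in M5.2. Over 33 female-biased genes it was 1.42, 1.71, 0.19 and -0.05. The LFD mice lay between -0.24 and 0.22 on both lists. Hsd3b5, a male-specific steroid dehydrogenase, measured 6.09, 298, 1.27 and 231 CPM on the HFD and 363, 330.1, 324 and 408 CPM on the LFD, so that M2.1 and M5.1 were almost without it and M2.2 and M5.2 were under the LFD range. Slco1a1 (145, 603, 75.7 and 668 CPM on the HFD), Cyp4a12b (7.03, 80, 4.03 and 61.7) and Serpina1e (267, 3886, 178 and 6575) had the same 2 low mice. Ihh was the only one of the 35 called by edgeR's quasi-likelihood test, 4 were by voom, and 21 were when M2.2 and M5.2 were left out. Each of these calls was lower, and over all 16077 genes the same settings called 361, 627 and 833 lower.

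Ihh, a hedgehog ligand, measured 0.976, 1.24, 0.503 and 1.3 CPM on the HFD and 2.87, 3.95, 3.44 and 4.09 CPM on the LFD (log2 fold change -1.83, SE 0.26, adjusted p = 0.00173), lower in all 4 mice. Of the female-biased genes 9 rose and 3 fell, beside 3.51% higher and 2.25% lower over all genes. DESeq2 called 16 of them higher and the likelihood ratio test 17, beside 816 and 702 of all 16077 genes. Those that rose through M2.1 and M5.1 included Hao2 (4.48, 0.211, 3.6 and 0.153 CPM on the HFD and 0.0667, 0.0245, 0.111 and 0.12 CPM on the LFD) and Cyp2b9, while Cyp2a4 (9.2, 0.352, 28.6 and 0.409 CPM on the HFD and 0.934, 0.687, 0.599 and 0.526 CPM on the LFD, adjusted p = 0.0541) showed the pattern without passing. Cyp2c40 and Adam11 fell, in M2.1 and M5.1 as in the other 2 (0.307, 0.633, 0.288 and 0.689 CPM on the HFD and 4.27, 2.14, 2.35 and 2.77 CPM on the LFD, log2 fold change -2.60, and 2.76, 3.63, 5.23 and 1.74 CPM on the HFD and 6.31, 8.66, 15.4 and 16.8 CPM on the LFD, log2 fold change -1.82). The transcription factor genes that keep these patterns varied as well: Bcl6, a male-biased repressor, measured 12.5, 38.2, 46.7 and 93.7 CPM on the HFD and 23.5, 66.2, 6.47 and 11.1 CPM on the LFD and was not called (adjusted p = 0.564), and Cux2, its female-biased counterpart, stayed under 1 CPM in all 8 mice. Igf1 (394, 541, 363 and 521 CPM on the HFD and 605, 586, 554 and 599.7 CPM on the LFD, log2 fold change -0.37) and Socs2 (10.3, 21.5, 3.07 and 7.61 CPM on the HFD and 71.4, 14.5, 26 and 40.6 CPM on the LFD, -1.84), both induced by growth hormone, were not called, and Egfr, another such gene, spread from 99.1 to 874 CPM on the HFD. Of the 13 calls, 9 held without M2.1, without M3.1 or without M4.2, 10 without M3.2 or M5.1, 11 without M4.1, 13 without M2.2 or M5.2, and 2 without M2.1 and M5.1 together.

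**Figure D4:**
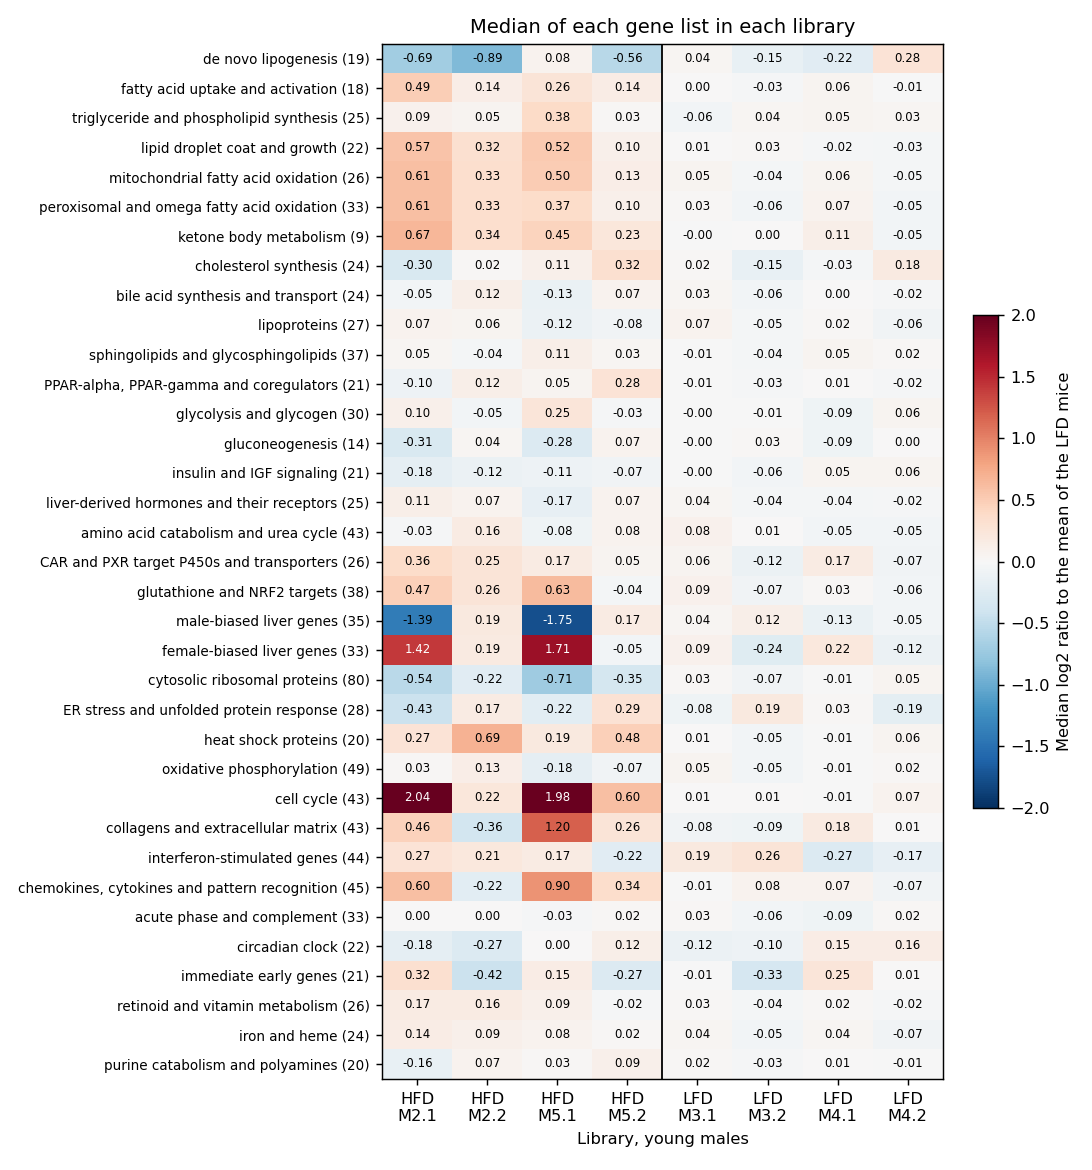
Median log2 ratio of each gene list to the mean of the LFD mice (colour and printed value) in each of the 8 young male libraries, with the number of genes in brackets. The sex-biased and cell cycle lists were displaced in M2.1 and M5.1 and near 0 or weakly displaced in M2.2 and M5.2, while heat shock and ribosomal protein genes were displaced in all 4 HFD mice.

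The genes of cytosolic ribosomal proteins fell together. Of 80 measured, 60 were lower and 0 higher, and in 74 each HFD mouse lay below each LFD mouse, beside 5.49% of all genes. The study names this group from the same libraries, so its direction here is not independent evidence. The median log2 fold change was -0.44, and all 80 values lay below 0. By mouse, the median was -0.71 in M5.1, -0.54 in M2.1, -0.35 in M5.2 and -0.22 in M2.2, against -0.07 to 0.05 in the LFD mice. Rpl3, of the large subunit, measured 128, 162, 139 and 177 CPM on the HFD and 231, 229.9, 219.8 and 256 CPM on the LFD (log2 fold change -0.63, SE 0.09, adjusted p = 0.00214), and Rps6, of the small subunit and the substrate of S6 kinase, 89.2, 109, 78.1 and 101 CPM on the HFD and 129.6, 127, 126 and 133 CPM on the LFD (log2 fold change -0.45). Rplp0 of the stalk had a log2 fold change of -0.48. Reads shared with processed pseudogenes of these genes were not counted.

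Heat shock proteins went the other way: 7 of 20 rose and 0 fell, beside 3.51% higher and 2.25% lower over all genes. All 20 values lay above 0 (median 0.43), beside 8381 of all 16077. Unlike most groups, the list was higher in M2.2 (0.69) and M5.2 (0.48) than in M2.1 (0.27) and M5.1 (0.19). Hsp90aa1, the inducible HSP90, measured 232, 379, 244 and 303 CPM on the HFD and 170.3, 171, 173 and 182 CPM on the LFD (log2 fold change 0.73, SE 0.15, adjusted p = 0.0128). Hspb1, a small heat shock protein, measured 16.9, 20.3, 18.7 and 13 CPM on the HFD and 8.58, 5.45, 7.27 and 5.05 CPM on the LFD (log2 fold change 1.38), and Hspa4l 19.7, 25.2, 24.2 and 24.7 CPM on the HFD and 15.1, 13.4, 14.3 and 17.1 CPM on the LFD (0.65). All 4 HFD mice were above all LFD mice in each, as in 6.06% of all genes. Fkbp4, an HSP90 partner, rose too (0.42). Hspa1a, the inducible HSP70, was erratic (1.57, 9.36, 0.815 and 0.919 CPM on the HFD and 0.2, 0.491, 1.15 and 1.63 CPM on the LFD) and not called. Of 28 genes of endoplasmic reticulum stress 0 were called by edgeR's quasi-likelihood test (4 at an unadjusted p under 0.05), and 2, both lower, by the likelihood ratio test, DESeq2 or voom. Hspa5, the main chaperone there, measured 982, 1909, 1206 and 1713 CPM on the HFD and 1206, 2013, 1428 and 1091 CPM on the LFD (adjusted p = 0.979), Ddit3 had a log2 fold change of 0.83 (adjusted p = 0.194) and Atf4 of -0.56 (adjusted p = 0.0513). Of 49 oxidative phosphorylation genes 0 were called either (4 at an unadjusted p under 0.05, 0 by the likelihood ratio test and 1 each by DESeq2 and voom), and their median was -0.02, with Ndufs1 at 0.06, Sdha at 0.12 and Cox4i1 at -0.09. Of the 7 heat shock calls, 5 held without M2.1, 6 without M5.1, 3 without any other single mouse of the 8, 2 without both M2.2 and M5.2, and 4 without both M2.1 and M5.1. Of the 60 ribosomal calls, 16 held without M2.1, 23 without M5.1, 28 without M3.1, 32 without M4.1, 18 without M4.2, 51 without M3.2, 60 without M2.2, 58 without M5.2, and 1 without M2.1 and M5.1 together.

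Cell cycle genes rose mainly in M2.1 and M5.1. Of 43 measured, 20 were higher and 0 lower, beside 3.51% higher and 2.25% lower over all genes. The median log2 fold change was 1.49, and the list median by mouse was 2.04 in M2.1, 1.98 in M5.1, 0.60 in M5.2 and 0.22 in M2.2. The study names cell cycle genes from these libraries, so the count is not independent evidence. Mki67, the proliferation marker, measured 14.8, 2.72, 13.3 and 5.74 CPM on the HFD and 1.6, 2.6, 2.59 and 2.03 CPM on the LFD (log2 fold change 2.05, SE 0.48, adjusted p = 0.0219). M2.1 and M5.1 were far above the LFD mice, M5.2 stood between, and M2.2 was just above the highest LFD mouse. Top2a (log2 fold change 1.76), Cdk1 (1.69) and Cdc20 (1.96) had the same 2 highest mice, and the mitotic kinase gene Aurka measured 2.24, 0.727, 1.97 and 1.12 CPM on the HFD and 0.489, 0.417, 0.333 and 0.574 CPM on the LFD (log2 fold change 1.74). Cdkn1a, which encodes the cell cycle inhibitor p21, rose in all 4 mice (16.9, 7.03, 19.1 and 5.26 CPM on the HFD and 1.62, 4.22, 1.06 and 2.18 CPM on the LFD, log2 fold change 2.42, adjusted p = 0.00643). Ccnd1 was not called (0.30, adjusted p = 0.686). Of the 20 calls, 4 held without M2.1, 6 without M5.1, 5 without M4.2, 9 without M4.1, 11 without M3.1, 14 without M3.2, 20 without M2.2 or M5.2, and 0 without M2.1 and M5.1 together.

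Extracellular matrix genes had a positive median (0.49) with 0 of 43 called by edgeR's quasi-likelihood test (14 at an unadjusted p under 0.05, 12 of them higher), 2 by the likelihood ratio test, 3 by DESeq2 and 1 by voom. The study names matrix genes such as Col1a1 and Col3a1 as higher in aged males and lower in young females on the HFD. It also gives matrix genes as raised in males without naming an age, so the direction here is not independent evidence. Col1a1, the main fibrillar collagen, measured 31.4, 9.45, 103 and 16.2 CPM on the HFD and 15.4, 13, 14.1 and 14.4 CPM on the LFD (adjusted p = 0.158), and Col3a1 78.8, 27.5, 186 and 51.5 CPM on the HFD and 39.9, 37.1, 42.8 and 46 CPM on the LFD (adjusted p = 0.215). M5.1 alone was far above the rest in both, M2.1 was next, and M2.2 was at or below the LFD mice. Without M5.1 the list median was 0.14, and without M2.1 and M5.1 it was -0.07. The list had 2 calls without M2.2 and 12 without M2.2 and M5.2, in both cases with the higher mice kept. Summed markers of stellate cells and fibroblasts ran from 316 to 547 CPM on the HFD and from 353 to 444 CPM on the LFD, of Kupffer cells from 106 to 287 and from 138 to 206 CPM, and of monocyte-derived macrophages from 121 to 248 and from 179 to 201 CPM. M2.2 was the lowest of all 8 mice in all 3 sums, and 0 of the 10 Kupffer cell and 0 of the 13 stellate cell and fibroblast markers were called by edgeR, DESeq2 or voom, or had an unadjusted p under 0.05 in edgeR's quasi-likelihood test. All 10 Kupffer cell changes (median 0.33) and 12 of the 13 stellate cell and fibroblast changes (median 0.155) lay above 0. By mouse, the Kupffer cell median was 0.69 in M2.1, -0.72 in M2.2, 0.46 in M5.1 and 0.66 in M5.2. Of the 14 markers of monocyte-derived macrophages 1 was called, Cd9, which was lower (not called without M2.1 or without M4.2), and 4 had an unadjusted p under 0.05, 3 of them higher. The median of these 14 was 0.58, and by mouse it was 0.51 in M2.1, -0.50 in M2.2, 1.30 in M5.1 and 0.28 in M5.2. The part of these cells in the matrix and immune values was not tested.

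Of 45 chemokine, cytokine and pattern recognition genes, 4 rose and 1 fell, beside 3.51% higher and 2.25% lower over all genes. The median was 0.56, and 37 of the 45 values lay above 0, beside 8381 of all 16077. Tlr5, the flagellin receptor, measured 25.8, 17.3, 26.1 and 14.7 CPM on the HFD and 11, 10.1, 11.9 and 9.86 CPM on the LFD (log2 fold change 0.97, SE 0.16, adjusted p = 0.00371) and Tlr12 28, 10.2, 24.8 and 7.92 CPM on the HFD and 5.09, 6.85, 4.19 and 3.16 CPM on the LFD (log2 fold change 1.88), with no overlap between diets in either. The chemokine genes Ccl2 (1.52, 0.75, 1.03 and 0.332 CPM on the HFD and 0.333, 0.295, 0.177 and 0.287 CPM on the LFD, log2 fold change 1.74) and Cxcl2 (2.18) rose at about 1 CPM and under. Ccl9, a chemokine of macrophages, fell (24.5, 35.4, 24.4 and 32.8 CPM on the HFD and 53.8, 41.2, 51.4 and 55.3 CPM on the LFD, log2 fold change -0.79). Tnf (0.85, adjusted p = 0.448), Il1b (-0.62) and Tlr4 (0.38) were not called. Of 44 interferon-stimulated genes 1, Ifi27l2b, was called, beside 5.76% of all genes. Ifi27l2b was at the threshold (adjusted p = 0.0491) and rose through M2.1 and M5.1 (12, 2.06, 18.9 and 1.51 CPM on the HFD and 1.31, 2.06, 1.49 and 2.63 CPM on the LFD). Isg15 (0.28) and Irf7 (-0.31) were not called. The study names chemokine, toll-like receptor and interferon genes from these libraries, so these counts are not independent evidence.

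Among 33 acute phase and complement genes, 4 rose and 4 fell, beside 3.51% higher and 2.25% lower over all genes. Fgb, the fibrinogen beta chain, measured 2817, 4184, 2412 and 3758 CPM on the HFD and 6365, 5343, 5008 and 5634 CPM on the LFD (log2 fold change -0.76, SE 0.17, adjusted p = 0.0163), and the alpha and gamma chains of the same clotting protein, Fga and Fgg, fell with it. Steap4, a metalloreductase induced in inflammation, rose evenly (166, 215, 206 and 206 CPM on the HFD and 142, 134, 96.4 and 105 CPM on the LFD, log2 fold change 0.73), and the orosomucoid gene Orm3 rose at low levels (3.99, 1.81, 5.47 and 0.996 CPM on the HFD and 0.533, 0.638, 0.466 and 0.718 CPM on the LFD). Saa1, a serum amyloid, measured 61.9, 35, 58.4 and 60.6 CPM on the HFD and 16.7, 18.9, 13.1 and 341 CPM on the LFD and was not called: the LFD mouse M4.2 was above each HFD mouse, and the other 3 LFD mice below each. Cfd, complement factor D, is known best as a product of fat cells. It measured 16.7, 15.1, 10.5 and 9.34 CPM on the HFD and 0.4, 1.15, 2.79 and 0.263 CPM on the LFD (log2 fold change 3.48), with the groups apart. The fat cell gene Adipoq was at 2.31, 0.0469, 0.0959 and 0.102 CPM on the HFD and 0.267, 0.295, 1.09 and 0.215 CPM on the LFD, so that M2.1 and M4.1 held the highest levels of it. All 8 fat cell markers summed to 3620 to 4250 CPM on the HFD and 2610 to 3820 CPM on the LFD, and 7 of the 8 changes lay above 0. Beyond Car3 and Cfd, 6 markers summed to 23.0 to 29.8 CPM on the HFD and 25.8 to 31.2 CPM on the LFD. The median log2 ratio of the 8 to the LFD mean was 2.19 in M2.1, 0.79 in M4.1 and below 0 in the other mice. The part of fat cells in these values was not tested.

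Themis, which marks T cells, was the only call of 14 measured T and NK cell markers (18.5, 5.09, 25 and 2.55 CPM on the HFD and 0.4, 0.859, 0.665 and 0.287 CPM on the LFD), and the other 13 summed to 3.64 to 6.00 CPM on the HFD and 5.23 to 6.73 CPM on the LFD. All 7 skeletal muscle markers were not in the table, and of 9 neutrophil markers 3 were. Of the 14 calls of the matrix, interferon, chemokine and acute phase lists, 9 held without M2.1, 8 without M5.1 or M3.1, 6 without M4.2, 11 without M4.1, 13 without M3.2 or M5.2, 14 without M2.2 and 1 without M2.1 and M5.1 together.

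The circadian clock gave 0 calls among 22 genes with edgeR's quasi-likelihood test (4 at an unadjusted p under 0.05), 0 with the likelihood ratio test or DESeq2 and 1 with voom. Nr1d1, a clock repressor, had a log2 fold change of -0.61 (adjusted p = 0.156), Arntl of -0.09 and Dbp of -0.53. Per1 measured 34.4, 30.7, 22.4 and 22.2 CPM on the HFD and 17, 13.2, 49.5 and 69.4 CPM on the LFD, a spread within the LFD larger than the difference between diets. Of 21 immediate early genes 1 was called, beside 5.76% of all genes. It was Ier2 (14.1, 12, 12.6 and 12.6 CPM on the HFD and 24.3, 20.3, 22.2 and 18.1 CPM on the LFD, log2 fold change -0.73, adjusted p = 0.00931), lower in each HFD mouse, while Fos (0.21) and Egr1 (-0.55) were not called.

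In retinoid metabolism 2 of 26 genes rose, beside 3.51% of all genes. Aldh1a1, retinal dehydrogenase, measured 2240.2, 1719, 2288 and 1404 CPM on the HFD and 1036, 864, 1225 and 759 CPM on the LFD (log2 fold change 0.98, SE 0.17, adjusted p = 0.00573) and its close relative Aldh1a7 had a log2 fold change of 0.64. All HFD mice were above all LFD mice in both. Of 24 iron and heme genes, Fth1, ferritin heavy chain (0.51), and Hfe (0.34) rose, and Fech (-0.26), which inserts iron into heme, and Smad7 (-0.95), a brake on hepcidin, fell. Hamp, the hepcidin gene, measured 102, 307, 58.5 and 187 CPM on the HFD and 570.1, 393, 349.5 and 296 CPM on the LFD (log2 fold change -1.30, adjusted p = 0.122), lowest in M2.1 and M5.1 and not called. Of 20 purine and polyamine genes, 3 rose: guanine deaminase, Gda (48.8, 37.6, 56.5 and 36.3 CPM on the HFD and 24.9, 18.2, 26 and 19.9 CPM on the LFD, log2 fold change 1.01, SE 0.16, adjusted p = 0.00285), the ectonucleotidase gene Nt5e (26.6, 9.1, 27.9 and 9.34 CPM on the HFD and 4.11, 4.3, 6.5 and 4.14 CPM on the LFD, log2 fold change 1.94) and the urate exporter gene Abcg2 (119, 122, 129 and 119 CPM on the HFD and 92.5, 94.1, 99.6 and 90.7 CPM on the LFD, log2 fold change 0.38). Each had no overlap between diets. Uox, the urate oxidase, was lower in each HFD mouse than in each LFD mouse but was not called (-0.46, adjusted p = 0.058). Of the 10 calls of these lists, 6 held without M2.1, M3.2, M4.1 or M4.2, 5 without M5.1, 8 without M3.1, 9 without M2.2, 10 without M5.2 and 0 without M2.1 and M5.1 together.

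The same diet was given to males 52 weeks old at the start. The age by diet interaction tested whether the response of young males differed from theirs, and 0 of 16077 genes (0%) were called by edgeR's quasi-likelihood test, with 1297 at an unadjusted p under 0.05, 27 called by the likelihood ratio test, 49 by DESeq2 and 0 by voom. Values for aged males share no library with those for young males. Dio1 had a log2 fold change of 1.06 (SE 0.15, adjusted p = 0.00426) in aged males, Fabp5 of -3.21 (SE 0.43, adjusted p = 0.00388), Clstn3 of 0.63 (SE 0.22, adjusted p = 0.0738) and Aldh3a2 of 1.04 (SE 0.20, adjusted p = 0.0096). The ribosomal gene Rpl3 had -0.43 (SE 0.09, adjusted p = 0.0139). Tmem28 had 0.39 (SE 0.22, adjusted p = 0.251) and Tsku 0.97 (SE 0.45, adjusted p = 0.164), beside young values of 2.09 and 2.08. The difference between ages in the latter 2 did not pass the test.

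Young females on the same diets were compared by the sex by diet interaction over 32 libraries. It called 56 of 15383 genes (0.364%), 44 with a more positive change in males and 12 with a more negative one. Apoa4 rose in males and had a log2 fold change of -1.35 (SE 0.58, adjusted p = 0.165) in females (difference 4.16, SE 0.84, adjusted p = 0.0428). Hr, a corepressor of nuclear receptors, differed by 3.22, SE 0.57, adjusted p = 0.0229, Klf9, a thyroid and glucocorticoid responsive factor, by -1.29, SE 0.24, adjusted p = 0.0357, and Cntnap1 by 3.42, SE 0.67, adjusted p = 0.0357. In the same fit, Hr and Klf9 were called in females (-1.92, adjusted p = 0.00916, and 1.03, adjusted p = 0.00322). They were not called in males (1.30, adjusted p = 0.0517, and -0.26, adjusted p = 0.427). Cyp2c40, a female-biased P450, fell in males with no call in females (0.26 (SE 0.27, adjusted p = 0.602), difference -2.87, SE 0.47, adjusted p = 0.00904). Genes without such a call included Dio1 (1.04 (SE 0.26, adjusted p = 0.0235) in females) and Sema5b (3.07 (SE 0.53, adjusted p = 0.00337) in females, 2.85 in males), a semaphorin.

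The sex difference rested on few libraries. In Osbpl3, an oxysterol binding protein, the LFD females F3.3, F3.4, F5.1 and F5.2 measured 2.42, 10.8, 1.25 and 10.6 CPM and the HFD females F2.2, F2.3, F4.1 and F4.2 measured 2.56, 2.24, 1.82 and 1.53 CPM. F3.4 and F5.2 thus stood apart from the other 2 LFD females, as M2.1 and M5.1 did among the HFD males. The count of calls was 0 without M2.1 and M5.1, 0 without F3.4 and F5.2 and 0 when only the 16 young libraries were fitted. It was 1 without M2.1, 3 without M5.1, 2 without F3.4, F5.2, F2.2, M3.1, M4.1 or M4.2, 3 without F4.2, 8 without M3.2 and 15 without F4.1. It rose to 82 without F2.3, 231 without M5.2, 442 without M2.2, 457 without F3.3 and 594 without F5.1.

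**Figure D5:**
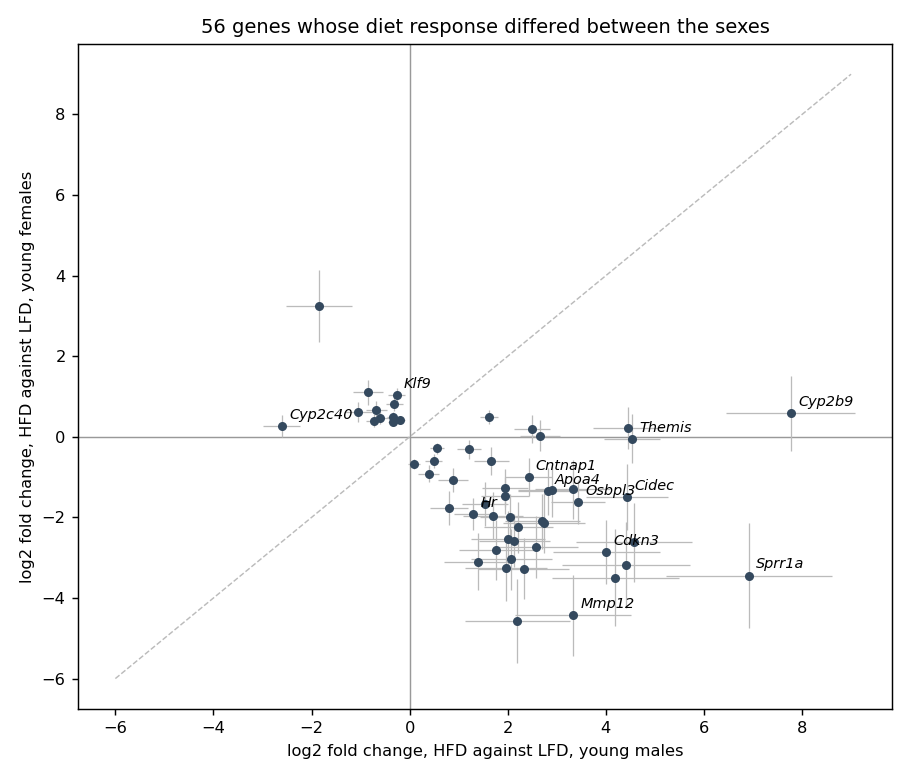
Log2 fold change on the HFD in young males (horizontal) and young females (vertical), with SE bars, of the 56 genes called in the sex by diet interaction, the dashed line marking equal changes. Osbpl3, Cidec and Apoa4 lie to the right of 0 in males and below 0 in females, and Cyp2c40 lies to the left in males and near 0 in females.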

How the data were processed

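Liver RNA of C57BL/6J mice was made into libraries from polyadenylated RNA and sequenced in pairs of 100-base reads. The authors mapped the reads to mm10 with STAR, left out reads that mapped to several places and counted reads per gene with featureCounts. Genes above 10 counts in 2 or more samples were kept, and each sex was tested apart with edgeR after TMM scaling. For the tool versions and annotation, the sources used here give none. The deposited raw counts are the only values used. The deposited log2 CPM and log2 RPKM columns and the columns of the authors' own comparisons (fold changes, p-values and false discovery rates) were not used. Groups came from the sample labels. Reads shared by near-identical genes are missing from the counts.

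The same filter left 16077 of 16079 genes. Counts were scaled by TMM and fitted with edgeR 4.0.16 in R 4.3.3 (quasi-likelihood F test) over the 4 male groups, 16 libraries, so that all share the estimate of the spread. The sex by diet interaction was fitted over 32 libraries and 15383 genes. All genes entered the Benjamini-Hochberg adjustment, and a gene under 0.05 was called. The study gives 4 mice per group for RNA, the labels tie no library to a cage, and the spread between replicates was well above counting noise (36.2 to 180 as the chi-square per gene of a pair). Scaling factors of the 8 libraries were 0.945 to 1.02. Alternatives were DESeq2 1.42.0, voom of limma 3.58.1, the likelihood ratio test, a robust prior, RLE scaling, other filters, left-out libraries and a fit of the 8 libraries alone. The code was tested on simulated data. Gene positions are those of GENCODE M21.

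Members and gene lists were chosen with earlier results of these data known. The text names the key members of each list and up to 4 with the smallest p, up to 12 genes each way with the largest changes among calls of at least 1 CPM whose diets do not overlap, and up to 10 per interaction. Genes added outside this rule are marked where they stand, apart from members named to complete a count (Fga, Fgg, Mgll, Psap and Pctp) and markers (Adipoq and Cd9). The values of some genes are not reported here. Other measurements of the study were not analysed here.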

Additional observations from a re-analysis of the deposited data

Results flagged for a closer look

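In groups of 4 mice, 1 value can stand far from the other 3. Chance gives such a gap in about 1 of 20 groups, and it was met in 18 of the 478 groups tested, which is not more than that share. M4.1 was high for Acaa1b (623 CPM), Cyp4a10 (219 CPM), Ech1 (208 CPM), Hsd17b13 (312 CPM) and Nt5e (6.5 CPM), and M4.2 for Saa1 (341 CPM) and Pnpla3 (18.8 CPM) and low for Ppm1k (49.7 CPM). M3.2 was low for Ugcg (23 CPM) and high for S100a10 (66.1 CPM). Among the HFD mice, M2.2 was high for Ddit3 (20.2 CPM) and Hspa1a (9.36 CPM) and low for Ppara (135 CPM) and Saa1 (35 CPM). M2.1 was high for Dio1 (193 CPM) and low for Hspa4l (19.7 CPM) and Slc10a2 (42.6 CPM), and M5.1 was high for Fasn (2850 CPM).

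The response to the HFD differed between young males and young females in an interaction test for 18 named genes. The log2 fold change of males minus that of females was 5.06 for Osbpl3, 4.58 for Themis, 3.22 for Hr, 3.42 for Cntnap1, 5.92 for Cidec, 4.16 for Apoa4, 4.23 for Slc22a27, 7.19 for Cyp2b9, 2.31 for Cd36, 1.13 for Aldh3a2, 7.68 for Gsta1, 3.21 for Anxa2 and 2.63 for Lgals1. It was 4.05 for Mki67 and 5.23 for Cdc20, and negative for Cyp2c40 (-2.87), Klf9 (-1.29) and Ier2 (-1.13). None of the 56 differences was called without M2.1 and M5.1 or without F3.4 and F5.2.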

How the results depend on the processing

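The calls of the HFD against the LFD in young males numbered 926. They were 1160 with the likelihood ratio test, 1422 with DESeq2 and 1404 with voom. With 1 mouse left out they ranged from 325 without M2.1 to 1110 without M5.2, being 380 without M5.1, 572 without M3.1, 478 without M4.1 and 327 without M4.2. They fell to 302 with only the 8 young male libraries, where the spread is estimated from fewer mice, and to 78 without M2.1 and M5.1, and rose to 1894 without M2.2 and M5.2. The other settings gave 901 to 948. Of the 239 named genes, 146 of them called, a called value changed sign for 2: Ifi27l2b became -0.062 without M2.1 and M5.1, and Saa1, not called in the full set, became 1.72 without M4.2. Calls on the higher side were 61% of all, and 55.3% with voom, 57.4% with DESeq2 and 58.4% with RLE scaling.

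The age by diet interaction had 0 calls, and 27 with the likelihood ratio test, 49 with DESeq2, 2 without M5.1, 1 without M6.3, 7 without M2.2 and M5.2, and 1 without the pair M2.1 and M5.1. The sex by diet interaction had 56 calls, and 395 with the likelihood ratio test, 484 with DESeq2, 41 with a robust prior and 0 with voom. It had 1 to 594 with 1 mouse left out: 1 without M2.1, 2 without M3.1, M4.1, M4.2, F2.2, F3.4 or F5.2, 3 without M5.1 or F4.2, 8 without M3.2, 15 without F4.1, 231 without M5.2, 442 without M2.2, 457 without F3.3 and 594 without F5.1. It had 0 with only the 16 young libraries or without a pair (M2.1 and M5.1, or F3.4 and F5.2), and 1048 without M2.2 and M5.2. The causes were not tested. The second part of the mouse number (1 or 2) recurs in both diets, with 2 mice of each diet per number, and M2.1 and M5.1 share it. With it as a replicate block within the young males, chosen after seeing the data, 986 genes were called, 867 of them among the 926. Deviations from the group means correlated at -0.062 to 0.19 between HFD and LFD mice of the same number and at -0.13 to 0.14 between those of different numbers. These values come from 8 mice and from deviations centred within each diet, so they cannot tell whether the number pairs the mice. The main fit did not pair them.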

Other observations

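The following genes are outside the lists above and were picked after their values were seen. Tpm2, a tropomyosin, measured 18, 13, 15.9 and 8.66 CPM on the HFD and 3.69, 4.2, 5.54 and 2.94 CPM on the LFD (log2 fold change 1.76, SE 0.22, adjusted p = 0.000783), with all 4 HFD mice above all LFD mice. Lgals1, the galectin, measured 60.3, 14.8, 74.3 and 13.2 CPM on the HFD and 5.47, 7, 8.14 and 5.29 CPM on the LFD (log2 fold change 2.65), and the annexin gene Anxa2 48.7, 14.1, 73.5 and 18.1 CPM on the HFD and 9.54, 9.28, 11.2 and 10.1 CPM on the LFD (log2 fold change 1.94), both with M2.1 and M5.1 far above the other 2. S100a10, which binds annexin A2, had a log2 fold change of 0.82, and Actg1, a cytoplasmic actin, of 0.75. The metallothionein genes Mt2 (3.83, 1.88, 4.77 and 2.04 CPM on the HFD and 0.422, 1.03, 0.665 and 0.407 CPM on the LFD, log2 fold change 2.31) and Mt1 (1.21), which bind zinc and copper, rose as well.

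Mfsd2a, which carries lysophospholipids and is known to rise with PPAR-alpha activity, measured 149, 120.2, 122 and 64.7 CPM on the HFD and 25.3, 43.7, 28.5 and 51.7 CPM on the LFD (log2 fold change 1.61, adjusted p = 0.00623), the lowest HFD mouse being above the highest LFD mouse. The lipid hydrolase genes Abhd3 (0.68) and Abhd6 (0.61) rose. Vegfa, the endothelial growth factor gene, fell evenly in the HFD mice (128, 155, 119 and 139.7 CPM on the HFD and 221, 181, 206 and 216 CPM on the LFD, log2 fold change -0.60), as did Ctsl, a lysosomal protease gene (-0.54). Vwa8, a mitochondrial ATPase gene, rose in all 4 mice (471, 372, 459 and 343 CPM on the HFD and 236, 247, 263 and 239 CPM on the LFD, log2 fold change 0.74).

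The elongation factor gene Eef1b2 fell (log2 fold change -0.48), as did Rack1 (-0.51), a scaffold on the small subunit, and Npm1 (-0.43), a nucleolar protein. The RNA-binding protein genes Rbm3 (19.7, 19.1, 19.5 and 18.5 CPM on the HFD and 24.6, 27.6, 33.7 and 36.3 CPM on the LFD, log2 fold change -0.67) and Cirbp (-0.77) fell, both known to be induced by cold, and all 4 HFD mice lay below all LFD mice. The non-classical class I genes H2-Q7 (38.8, 39.7, 30.3 and 30.8 CPM on the HFD and 64.3, 69.2, 52.3 and 65.4 CPM on the LFD, log2 fold change -0.85), H2-Q6 (-0.57) and H2-Q5 (-0.89) fell, whereas the classical H2-K1 (0.08, adjusted p = 0.753) and H2-D1 (0.14, adjusted p = 0.589) were not called. The H2-Q genes are near-identical, so reads that could not be placed are missing from their counts.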
